A study of Mus musculus with 8 samples.

Results

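The TGF-β genes described here are the ligands Tgfb1, Tgfb2 and Tgfb3, the receptors Tgfbr1 and Tgfbr2, the signal transducers Smad2, Smad3 and Smad4, and the inhibitors Smad7 and Bambi. The 10 genes were taken from a list of names by their role in the pathway, with no threshold on their measured values, out of 22180 genes that have a probe set with exactly 1 gene symbol, and each of the 10 has a single such probe set. The islets came from C57Bl/6 mice, 4 of them Fzd9 WT and 4 Fzd9 KO, with 1 Affymetrix Mouse Gene ST array on pooled islets of every mouse, and these 8 arrays are the whole series. All mice of both genotypes carried MycER, a form of Myc that tamoxifen switches on and that is driven by an insulin promoter in β-cells, together with BclXL, an anti-apoptotic transgene under another insulin promoter. All received intraperitoneal tamoxifen for 3 days. Fzd9, a Wnt receptor, was missing from every tissue of the KO mice, so an effect that starts outside the islets cannot be told apart from one inside them. The paper used young adult mice of both sexes, and it does not say which sex each array mouse had. No array came from a mouse without MycER or without tamoxifen. The paper describes hand-picked islets, whereas the sample labels speak of insulinoma and of homogenized tumor tissue, and this conflict is unresolved.

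TGF-β ligands are secreted in a latent form and, once released, bind the type II receptor Tgfbr2, which recruits and phosphorylates the type I receptor Tgfbr1. The active complex phosphorylates Smad2 and Smad3, which join Smad4 and enter the nucleus. Smad7 blocks the receptor complex and is itself induced by the pathway, and Bambi is a pseudoreceptor without a kinase domain that takes the place of a type I receptor. In islets the pathway is known for its part in pancreas development, in the restraint of β-cell proliferation and in changes of β-cell identity. The comparison of KO with WT islets asks whether the transcripts of this machinery differ at an early time of Myc activation when Fzd9 is absent. From a gene set enrichment analysis of the arrays, the paper reports reduced TGF-β receptor signaling in KO islets. Such an analysis ranks many genes together, which is a measure unlike the calls on single genes given here, and it was not repeated.

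None of the 10 genes differed between the genotypes beyond the spread between mice, and Bambi came closest (unadjusted p = 0.0704 by limma). For 9 genes, all but Bambi, the KO and WT means lay within 0.24 log2 units of each other. Bambi had the largest difference, and its KO mean was lower by 0.68 on the log2 scale. At the threshold of the study, a fold change of 1.2 or more at an unadjusted p below 0.05, 0 of the 10 genes were lower and 0 were higher in KO islets by limma, where 3.49% of all 41345 probe sets passed (1.59% lower and 1.9% higher). The count at an unadjusted p under 0.05 alone was also 0, by limma and by the methods' t-test. The KO and WT values overlapped for all 10 genes, and they did not overlap for 2.36% of all probe sets. The median log2 fold change was 0.02 over the 10 genes, 0.02 over all probe sets and −0.0001 over the brightest probe set of every gene. For 9 of the 10 genes the 95% interval of the difference lay between −1 and 1 on the log2 scale, that is, short of a 2-fold change either way. For Bambi it reached below −1. The 9 include Tgfb2 and Smad3, whose means were not above background in both genotypes, as described below. The intervals of these dim genes do not bound a change in RNA. Each of the 10 intervals also held changes larger than 1.2-fold in at least 1 direction, so a change of that size was not excluded for any gene.

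Values are log2 expression after RMA, so that a difference of 1 is a 2-fold change, and levels of different probe sets are not amounts of RNA that can be set against each other. As a gauge of background, 1405 probe sets of olfactory and vomeronasal receptors, which islets are not known to use, had a median mean level of 2.05 in WT and 2.17 in KO islets and a 95th percentile of 3.46 and 3.68. By their means 8 of the 10 genes were above background in both genotypes, and Tgfb2 and Smad3 were not. The endocrine gene Chga had a WT mean of 11.59 ± 0.14 and a KO mean of 11.45 ± 0.07, and the insulin gene Ins2 means of 7.84 ± 0.62 and 7.61 ± 0.50 (SD, n = 4 each), so the material carried its endocrine markers. The probe set of Fzd9 itself had means of 2.88 ± 0.67 and 2.53 ± 0.35 (SD, n = 4 each), below the gauge in either genotype, with the genotypes overlapping, so the arrays do not check the labels. A lower mean correlation with the other arrays set WT mouse 3 (0.897) and KO mouse 1 (0.893) apart from the rest (0.917 to 0.926). They also had the highest means of 19 acinar markers in their genotypes, at 5.57 and 6.77, where the other mice had 3.70 to 4.77.

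**Figure D1:**
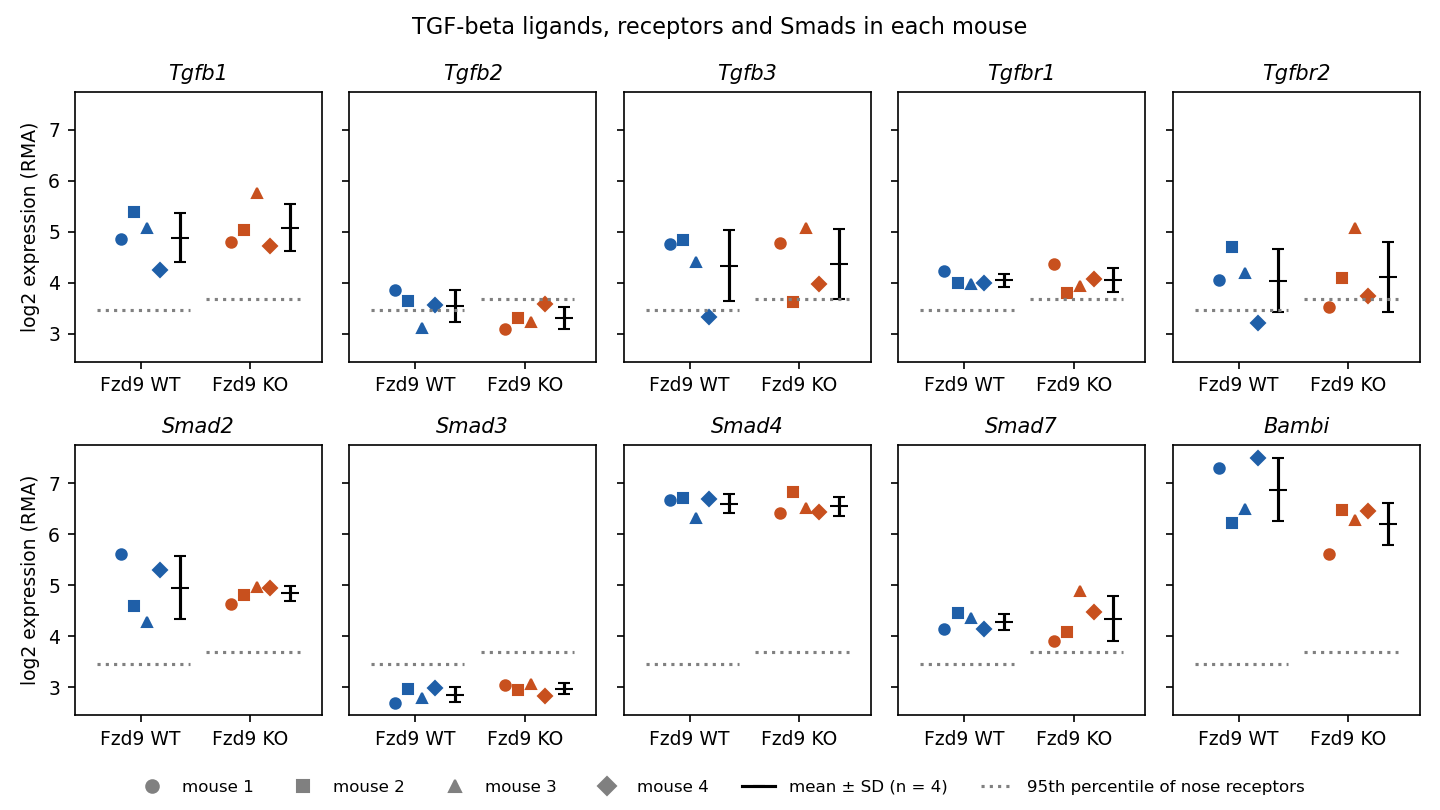
Log2 expression of the 10 TGF-β genes in each mouse, with Fzd9 WT in blue and Fzd9 KO in orange, 1 symbol shape for each mouse number, the mean ± SD (n = 4) in black, and the 95th percentile of the nose receptors in that genotype as a dotted line. The genotypes overlap in every panel. The means of Tgfb2 in KO islets and of Smad3 in both genotypes lie below the dotted line, at 3.31, 2.85 and 2.97.

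Tgfb1, the most widely expressed ligand and a product of leukocytes and endothelium among other cells, was at 4.85, 5.38, 5.07 and 4.25 in WT mice 1 to 4 and at 4.80, 5.04, 5.76 and 4.73 in KO mice 1 to 4. KO mouse 3 was the highest and WT mouse 4 the lowest, and the other 6 mice were interleaved. KO against WT gave a log2 fold change of 0.20 (standard error 0.31, 95% interval −0.49 to 0.89), and its adjusted p by limma was 1.0, as for each of the 10 genes.

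Tgfb3, a ligand of mesenchyme, was at 4.77, 4.84, 4.41 and 3.33 in the WT mice and at 4.79, 3.63, 5.08 and 3.97 in the KO mice. KO mouse 3 was again the highest, and WT mouse 4 was again the lowest. WT mouse 4 and KO mouse 2 were below the gauge of their genotypes. The spread within a genotype was 1.51 in WT and 1.46 in KO islets, and the difference of the means was 0.03 (standard error 0.42, interval −0.90 to 0.96). The standard error was the highest of the 10 genes.

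Tgfb2, the ligand that needs the accessory receptor betaglycan for strong binding, was dim, at 3.85, 3.65, 3.11 and 3.57 in the WT mice and at 3.10, 3.32, 3.23 and 3.59 in the KO mice. WT mouse 1 was the highest and KO mouse 1 the lowest, with WT mouse 3 close to it. The difference of the means was −0.23 on the log2 scale (standard error 0.22, interval −0.72 to 0.26). The KO mean lay at percentile 91.0 of the receptor gauge and the WT mean at 95.6, so this ligand was read close to background.

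The promoters of Tgfb1, Tgfb2 and Tgfbr2 are shown because Tgfb1 and Tgfbr2 ordered the mice alike, as described below, and Tgfb2 did not. Each line holds the 250 bases before the start site given by RefSeq (GRCm38.p6), 5′ to 3′ on the strand of the gene. Capitals mark matches on either strand to 5 motifs, namely the E-box CACGTG that Myc binds with Max, the TATA box TATAAA, the GC box GGGCGG of Sp factors, the AP-1 site TGANTCA and the Smad box CAGAC, and no matches shared a base in these windows. The start used for Tgfb2 lies inside the annotated span of that gene.
Tgfb1, chr7:25686752-25687001, + strand: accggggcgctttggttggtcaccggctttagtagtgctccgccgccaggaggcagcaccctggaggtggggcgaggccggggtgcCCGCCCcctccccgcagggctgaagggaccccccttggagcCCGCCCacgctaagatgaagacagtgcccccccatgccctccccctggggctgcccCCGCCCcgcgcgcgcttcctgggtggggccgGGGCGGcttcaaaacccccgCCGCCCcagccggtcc
Tgfb2, chr1:186705990-186706239, - strand: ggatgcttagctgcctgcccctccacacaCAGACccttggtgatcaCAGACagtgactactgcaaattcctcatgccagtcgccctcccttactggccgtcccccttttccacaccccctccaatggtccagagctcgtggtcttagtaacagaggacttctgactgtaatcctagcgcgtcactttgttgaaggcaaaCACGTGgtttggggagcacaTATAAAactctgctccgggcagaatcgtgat
Tgfbr2, chr9:116175364-116175613, - strand: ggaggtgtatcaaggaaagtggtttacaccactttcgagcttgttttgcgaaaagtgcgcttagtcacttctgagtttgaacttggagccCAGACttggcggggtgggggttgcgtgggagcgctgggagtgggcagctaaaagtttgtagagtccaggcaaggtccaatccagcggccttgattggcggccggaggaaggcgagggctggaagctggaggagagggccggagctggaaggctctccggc
The Tgfb1 window was GC-rich, with 75.2% G or C, and held 5 GC boxes and no match to the other motifs. The Tgfb2 window, with 53.6% G or C, had an E-box starting at position −51, a TATA box at position −31 and 2 Smad boxes, counted back from the start site. The Tgfbr2 window, with 58.4% G or C, had 1 Smad box at position −160. Among the 32851 RefSeq windows of the same length, an E-box stood in 6.02%, a TATA box in 12.4%, a GC box in 32.7%, an AP-1 site in 6.75% and a Smad box in 42.2%. Windows were matched for 5 of the 10 genes, Tgfbr1 and Smad3 being the others. A match is a string of letters and was not tested as a binding site.

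Tgfbr1, the type I receptor kinase, was among the genes with the least spread, at 4.24, 3.99, 3.97 and 3.99 in the WT mice and at 4.37, 3.81, 3.94 and 4.08 in the KO mice. Both mice numbered 1 were above the other 6. WT and KO means were 4.05 ± 0.13 and 4.05 ± 0.24 (SD, n = 4 each), with a difference of 0.004 log2 units (standard error 0.19, interval −0.43 to 0.44).

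Tgfbr2, the type II receptor that binds the ligand, was at 4.06, 4.71, 4.19 and 3.22 in the WT mice and at 3.53, 4.09, 5.08 and 3.75 in the KO mice. KO mouse 3 was the highest and WT mouse 4 the lowest, as for Tgfb1 and Tgfb3, and WT mouse 4 and KO mouse 1 were below the gauge. KO and WT differed by 0.07 log2 units (standard error 0.40, interval −0.82 to 0.96), against a range over all 8 mice of 1.87.

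Smad2, which relays the signal of TGF-β and activin receptors, was at 5.61, 4.58, 4.28 and 5.30 in the WT mice and at 4.63, 4.80, 4.97 and 4.94 in the KO mice. All 4 KO mice lay inside the range of the WT mice, and the SD was 0.62 in WT and 0.15 in KO islets, a contrast of spread that was not tested. The KO mean differed by −0.11 log2 units (standard error 0.30, interval −0.77 to 0.56).

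Smad3, the partner of Smad2 that binds DNA directly, was at 2.69, 2.96, 2.78 and 2.98 in the WT mice and at 3.04, 2.94, 3.07 and 2.83 in the KO mice. These values lay at percentiles 86.3 and 85.2 of the receptor gauge, and the difference of 0.12 (standard error 0.18, interval −0.28 to 0.51) was read near background.

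Smad4, the shared partner of all receptor-activated Smads, was at 6.67, 6.70, 6.32 and 6.68 in the WT mice and at 6.41, 6.82, 6.52 and 6.43 in the KO mice. WT mouse 3 was below the other WT mice, and the rest were mixed. The genotypes differed by −0.05 log2 units (standard error 0.19, interval −0.48 to 0.38).

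Smad7, the inhibitory Smad, was at 4.14, 4.45, 4.35 and 4.14 in the WT mice and at 3.91, 4.08, 4.89 and 4.47 in the KO mice. The KO mice spanned the WT range on either side, with KO mouse 3 the highest and KO mouse 1 the lowest. The log2 fold change was 0.07 (standard error 0.24, interval −0.48 to 0.62).

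Bambi was at 7.29, 6.21, 6.49 and 7.50 in the WT mice and at 5.60, 6.47, 6.27 and 6.45 in the KO mice. WT mice 1 and 4 were above all KO mice, WT mouse 2 was below 3 of them, and KO mouse 1 was the lowest of all. The WT mean was 6.87 ± 0.62 and the KO mean 6.20 ± 0.41 (SD, n = 4 each). This gave a log2 fold change of −0.68 (standard error 0.33, 95% interval −1.42 to 0.07, adjusted p = 1.0 by limma), a KO level of 0.626 times the WT level with an interval of 0.373 to 1.05. Without WT mouse 2 the value was −0.90 and passed the threshold, which the value from all mice did not. It was −0.47 without WT mouse 4, −0.48 without KO mouse 1 and −0.54 without WT mouse 1. In the main fit the unadjusted p by limma was 0.0704. The same difference of −0.68 passed when probe sets were averaged by gene (unadjusted p = 0.0467 by limma). That fit holds only probe sets with 1 symbol. The acinar marker mean was 4.60 in WT and 4.96 in KO islets, and Bambi correlated with it over the 8 mice at r = −0.50 (exact permutation p = 0.201, adjusted p = 0.667) and at −0.117 without KO mice 1 and 4. The β-cell marker mean was 7.57 in WT and 7.33 in KO islets, and Bambi correlated with it at r = 0.719 (exact permutation p = 0.0515, adjusted p = 0.388). The part of acinar or β-cell RNA in the Bambi values was not tested.

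**Figure D2:**
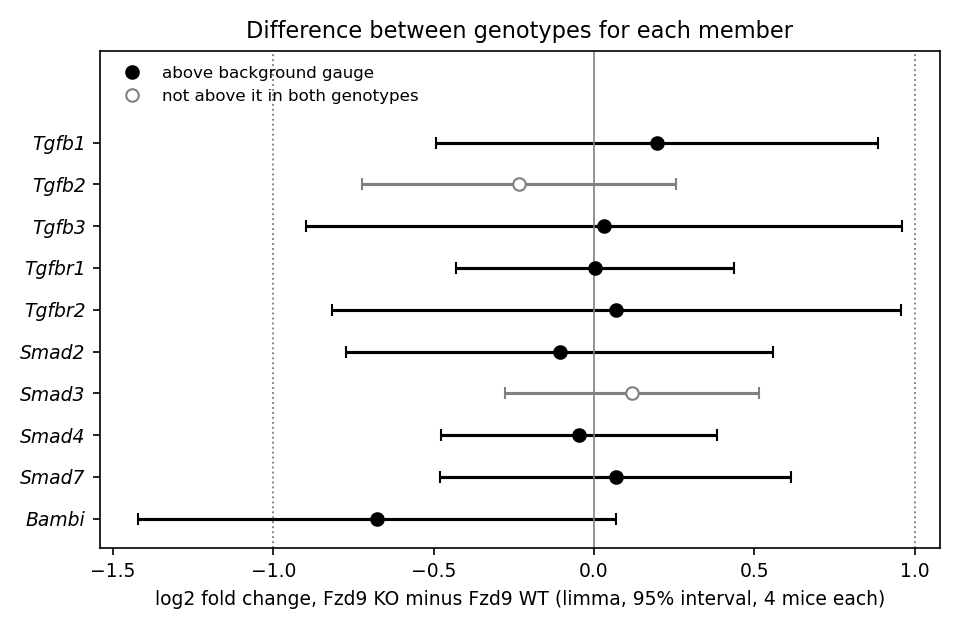
Log2 fold change of Fzd9 KO against Fzd9 WT islets for each TGF-β gene, with 95% intervals from limma (4 mice each). Filled points are above the background gauge in both genotypes, open points are not, and dotted lines mark a 2-fold change. Every interval spans 0, and that of Bambi alone passes a dotted line, at −1.42.

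Although no gene passed the threshold between genotypes in the main comparison, single mice lay far apart, and Tgfb1, Tgfb3 and Tgfbr2 shared their extremes, with KO mouse 3 highest and WT mouse 4 lowest. The mean of 16 endothelial markers, among them the VEGF receptor Kdr, was 5.13, 5.77, 4.49 and 4.18 in the WT mice and 5.24, 4.87, 5.72 and 4.58 in the KO mice. WT mouse 4 was again the lowest, and WT mouse 2 and KO mouse 3 were the highest. Of the 16 markers 12 were above the background gauge in both genotypes, Erg, Sox17, Cldn5 and Vwf were not, and 1, Vwf, was lower in KO islets at the threshold. Fewer cells of a type and less RNA per cell cannot be told apart in these bulk samples. This comparison was chosen after the values had been seen, and covers the 10 genes against 5 marker lists, 50 relations over 8 mice with exact two-sided permutation tests.

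Tgfb3 followed the endothelial mean most closely of the 10 genes, with Pearson r = 0.827 (exact permutation p = 0.0143, adjusted p = 0.372) and Spearman rho = 0.881 (exact permutation p = 0.00724, adjusted p = 0.362). For Tgfb1, r was 0.803 (exact permutation p = 0.0149, adjusted p = 0.372) and rho 0.643 (p = 0.0962, adjusted p = 0.481, exact). For Tgfbr2, r was 0.761 (exact permutation p = 0.0277, adjusted p = 0.388) and rho 0.571 (p = 0.151, adjusted p = 0.581, exact). None of the 50 relations passed the adjustment. Without WT mice 2 and 4, the farthest from the median endothelial mean, r was 0.72 for Tgfb3, 0.637 for Tgfb1 and 0.543 for Tgfbr2, and after the genotype means were subtracted it was 0.838, 0.794 and 0.765. Bambi ran the other way, with r = −0.535 (exact permutation p = 0.175, adjusted p = 0.626) and rho = −0.762 (p = 0.0368, adjusted p = 0.462, exact). Without the same 2 mice its r was −0.204, and after the genotype means were subtracted over all 8 mice it was −0.532. Leaving out the farthest mice narrows the range of the marker mean. A lower r without them therefore does not show that a relation rests on them.

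For 19 stromal and pericyte markers (15 above the gauge), whose mean ran from 3.82 to 5.39 in WT and from 3.83 to 4.61 in KO mice, r was 0.665 for Tgfb3, 0.663 for Tgfbr2 and 0.647 for Tgfb1 (exact permutation p = 0.074, 0.0672 and 0.0777, adjusted p = 0.388 each), and without WT mice 2 and 4 it was 0.48, 0.356 and 0.361. For 19 leukocyte markers (13 above the gauge), at 3.92 to 4.44 in WT and 3.75 to 4.27 in KO mice, r was 0.657 for Tgfbr2 and 0.637 for Tgfb1 (exact permutation p = 0.0739 and 0.0879, adjusted p = 0.388 and 0.4), and without WT mouse 4 and KO mouse 4 it was 0.516 and 0.359. Against 13 β-cell markers (12 above the gauge), at 7.19 to 7.96 in WT and 7.27 to 7.44 in KO mice, Bambi had r = 0.719 and Smad2 r = 0.706 (exact permutation p = 0.0515 and 0.0519, adjusted p = 0.388 each). Without WT mice 1 and 4, the farthest from the median β-cell mean, these were 0.112 and −0.316, over a narrower range of that mean. After the genotype means were subtracted over all 8 mice they were 0.602 and 0.745. Whether these relations rest on WT mice 1 and 4 is not settled by leaving them out. Against acinar markers (13 of 19 above the gauge) the strongest relation was that of Tgfb2, with r = −0.714 (exact permutation p = 0.0371, adjusted p = 0.388), and r = −0.648 without KO mice 1 and 4. The part of these cell types in the values of the TGF-β genes was not tested. Tgfbr1 and Smad4, whose values were the steadiest among the genes above background, had r = 0.119 and 0.151 with the endothelial mean.

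**Figure D3:**
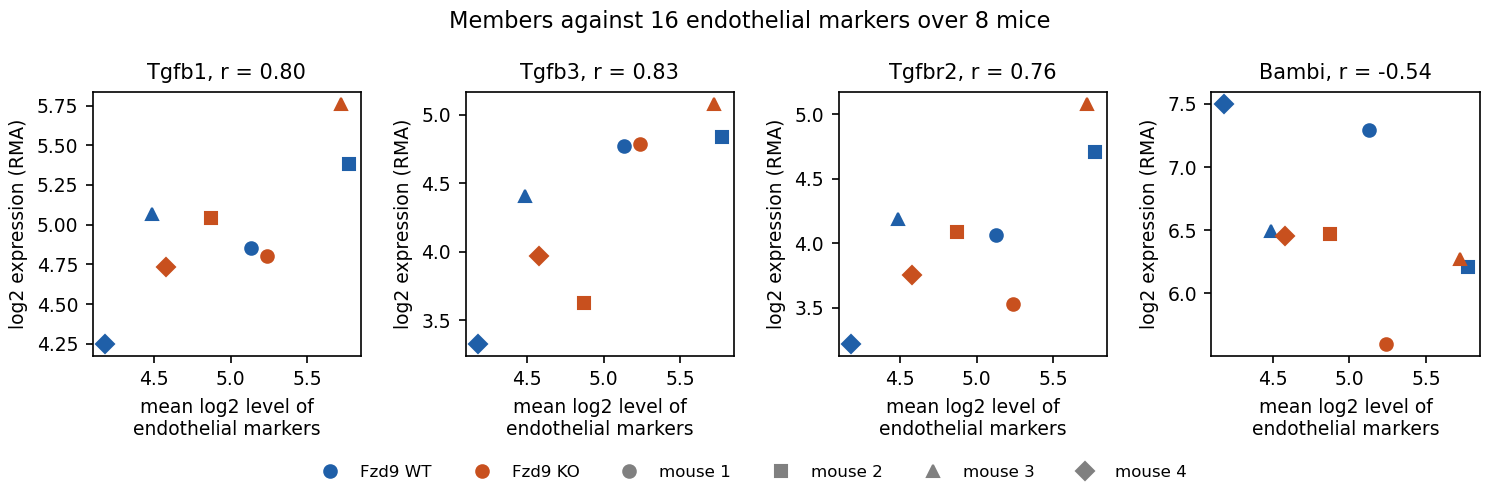
Log2 expression of Tgfb1, Tgfb3, Tgfbr2 and Bambi on the vertical axes against the mean log2 level of 16 endothelial markers on the horizontal axes, 1 point for each of 8 mice, with Fzd9 WT in blue and Fzd9 KO in orange. WT mouse 4 is at the lower left and KO mouse 3 near the upper right for the first 3 genes (r = 0.803, 0.827 and 0.761), and Bambi slopes down (r = −0.535).

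The genes with profiles nearest to those of the 3 most variable TGF-β genes were found by the root mean square difference, over the 8 arrays, between deviations from each gene's own mean, among genes above the background gauge. Tgfbr2 was nearest to Podxl, which encodes the sialomucin podocalyxin, at a difference of 0.11 log2 units, and to Mfge8, which encodes a secreted glycoprotein, at 0.16. Podxl was at 5.45, 6.01, 5.50 and 4.42 in the WT mice and at 5.01, 5.22, 6.49 and 5.10 in the KO mice, so it had the same highest and lowest mouse as Tgfbr2. Tgfb3 was nearest to Msn, the cytoskeletal linker moesin, at 0.24, and to Cav2, a caveolin, at 0.28. Bambi was nearest to Slc7a1, a transporter of cationic amino acids, at 0.15 (values of 7.14, 6.21, 6.20 and 7.11 in WT and 5.59, 6.59, 6.17 and 6.34 in KO mice), and to Slc25a15, the mitochondrial ornithine carrier, at 0.24. The mice with high Bambi, WT mice 1 and 4, were those with high Slc7a1. Podxl and Slc7a1 were picked for their likeness over these same 8 arrays, so the shared extremes follow from that choice.

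Around these 10 genes, the wider TGF-β superfamily was read from 6 lists written from general knowledge, 104 measured genes in all, each counted once. By limma 1 of the 104 genes passed the threshold, where 3.49% of all probe sets did. Among the brightest probe sets of all 22180 genes, 259 passed lower and 284 higher. By the methods' t-test 3 of the 104 passed (Fst, Id4 and Junb), where 1497 of all 41345 probe sets did. Junb, a partner in the AP-1 factor that TGF-β induces and that also belongs to the early response genes, fell, and by limma no gene was higher. The paper already names Junb among its most decreased genes. Its qRT-PCR of Junb was also lower in KO islets but did not reach significance. Junb was at 7.16, 8.88, 7.94 and 7.48 in the WT mice and at 6.51, 6.60, 7.04 and 6.45 in the KO mice. The lowest WT value was above the highest KO value. Its log2 fold change was −1.22 (standard error 0.35, adjusted p = 1.0 by limma), and it passed the threshold with any single mouse left out, at −0.88 without WT mouse 2 and −1.45 without WT mouse 1. Over the 104 genes the median was −0.10, against 0.02 for all probe sets and −0.0001 for the brightest probe set of every gene. The interval lay between −1 and 1 for 81 of the 104. Some of these genes were not above the background gauge, where an interval does not bound a change in RNA. The genotypes did not overlap for 4 of the 104 (Fst, Id2, Id4 and Junb), beside 2.36% of all probe sets.

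Among 11 measured genes that store or release latent TGF-β, none passed the threshold by limma, none had an unadjusted p under 0.05, and the median was −0.22, with 10 below 0, and −0.12 without WT mouse 2. The lowest p-values were those of Lrrc32, which anchors latent TGF-β on cell surfaces, with −0.56 (standard error 0.35), and of the integrin subunit Itgb8, with −0.38 (standard error 0.26). Both had KO means below the background gauge, at percentiles 83.8 and 94.2. Lrrc32 passed without KO mouse 2, at −0.82, and was at −0.37 without WT mouse 2 or KO mouse 4, and Itgb8 passed without KO mouse 1, at −0.59, and was at −0.25 without KO mouse 3. Dcn, the matrix proteoglycan decorin, had the largest difference of the list, −0.79 (standard error 0.75), at 4.36 to 7.97 in WT and 4.23 to 6.10 in KO mice. Of 5 accessory receptors none passed by limma, all 5 had higher KO means and the median was 0.32. This direction rested on single mice, since the median was −0.02 without WT mouse 4 and −0.08 without KO mouse 3. They included Eng, the endothelial receptor endoglin, with a WT mean of 5.06 ± 0.64 and a KO mean of 5.49 ± 0.62 (SD, n = 4 each), which differed by 0.43 log2 units (standard error 0.38), and Cd109, at 1.66 and 2.09, within the background gauge. Eng was highest in KO mouse 3 and lowest in WT mouse 4, and its difference was 0.17 without WT mouse 4, 0.18 without KO mouse 3 and 0.69 without WT mouse 2. The endothelial marker mean was 4.89 in WT and 5.10 in KO islets. Its part in the Eng values was not tested.

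Of 21 regulators and partners of the Smads, none passed by limma and the differences ran from −0.30 to 0.17, with a median of −0.10, which lay between −0.176 and −0.001 with single mice left out. Trim33, a ubiquitin ligase that acts on Smad4, was at −0.30 (standard error 0.20), and Smurf2, a ubiquitin ligase that targets receptors and Smads, at −0.20 (standard error 0.18). Of 15 genes of the activin and nodal arm none passed by limma, with a median of 0.14 that turned to −0.01 without KO mouse 1. Fst, the activin antagonist follistatin, was at 2.24 to 2.55 in WT and 2.63 to 2.94 in KO mice, without overlap but below the background gauge, and the means differed by 0.37 log2 units (standard error 0.18). Fst passed by the methods' t-test and by limma with array weights. Fstl3, a related antagonist, was at −0.26 (standard error 0.22).

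Of 25 genes of the BMP arm none passed by limma, with a median of −0.12 (−0.151 to −0.064 with single mice left out). Bmp6, a ligand of endothelium and liver iron control, was at 3.41, 4.10, 4.62 and 3.76 in the WT mice and 3.51, 3.38, 3.73 and 2.30 in the KO mice, with a difference of −0.74 log2 units (standard error 0.36). The KO mean was below the background gauge, at percentile 90.5, and the WT mean above it, at 97.4. Bmp6 passed without WT mouse 1 (−0.93), without KO mouse 3 (−0.91), with the mouse number as a block and with probe sets averaged by gene, and was at −0.43 without KO mouse 4. Bmp10, a heart ligand, was within the background gauge, at percentile 42.8 in WT and 71.8 in KO islets, with a difference of 0.61 (standard error 0.30). It passed without KO mouse 4, at 0.79, and with probe sets averaged by gene, and was at 0.33 without KO mouse 2. Id2 and Id4, BMP-induced inhibitors of helix-loop-helix factors, had KO values that did not overlap the WT values, with log2 fold changes of −0.22 and −0.38, and both were below the gauge. Genes without overlap were 4 of the 104, beside 2.36% of all probe sets. Id4 passed by the methods' t-test and by limma with array weights. Of 32 genes that TGF-β induces in many cells, Junb fell and 31 did not pass by limma, with a median of −0.12 that turned to 0.09 without WT mouse 2 and was −0.27 without WT mouse 3, −0.25 without WT mouse 4 and −0.03 without KO mouse 4. Klf10, an early TGF-β-induced zinc finger factor, had the next lowest p and a higher KO mean, 3.66 ± 0.31 against 3.13 ± 0.46 (SD, n = 4 each), which differed by 0.53 log2 units (standard error 0.27), and it passed with array weights and without WT mouse 1. Both Klf10 means were below the gauge, at percentile 91.5 in WT and 94.9 in KO islets. Among the listed genes 5, the collagens Col1a1, Col1a2 and Col3a1 with Acta2 and Tagln, are stromal markers too. Their log2 fold changes ran from −0.38 to −0.18 with overlapping genotypes, beside stromal marker means of 4.56 in WT and 4.37 in KO islets, and the part of stromal RNA was not tested.

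**Figure D4:**
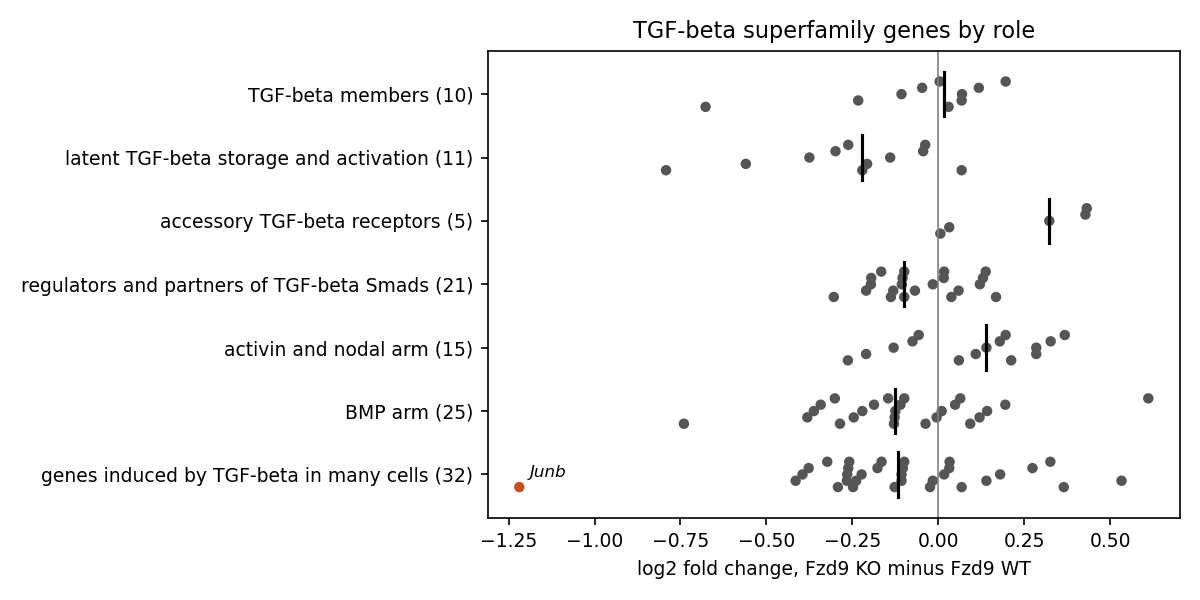
Log2 fold changes of Fzd9 KO against Fzd9 WT islets for the 10 TGF-β genes and 6 lists of the superfamily, 1 point for each gene, with the number measured in parentheses and the list median as a bar. Vertical offsets only separate the points. Junb, in orange at −1.22, is the single gene past the threshold by limma.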

How the data were processed

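Expression was measured in islets of 8 mice, 4 of either Fzd9 genotype, 1 array each. The authors deposited log2 expression values after RMA (the submitters' processing notes name Partek as well, with versions and settings not given in the sources used here). Array medians lay between 2.90 and 3.17, and nothing was renormalized in the main fit. Of 41345 probe sets, 23521 have 1 symbol in the platform annotation, 23328 of them updated through Entrez ID, 1820 have several and 16004 are unnamed here. A gene is read from its probe set with 1 symbol and the highest mean.

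KO and WT were compared with limma 3.58.1 (R 4.3.3), lmFit and eBayes, on all probe sets without a filter, and p-values were adjusted over all of them by Benjamini-Hochberg. The array number, 4 in each group, limits the precision. No set test was run. Simulated data were used to test the fit. The 10 genes were listed by their role and not by a threshold on their values, but they, the lists and the tests were chosen with earlier results of these data known. Named beside the 10 genes are list members past the threshold or with the 2 lowest p-values, the 2 nearest profiles of the 3 most variable genes, Fzd9, Ins2 and the brightest marker of each cell type (Chga, Gcg, Ctrb1, Krt7, Kdr, Rgs5, C1qb and Kit, not all of them discussed). Dcn, Id2, Id4 and the shared stromal genes were added after their values were seen. Zeb2, Fbn1 and Gdf1 of the lists have no probe set with a single symbol here, and 1 further item is not reported here. Alternatives were limma with a trend, robust statistics or array weights, the methods' t-test (named there for other measurements), 3 normalizations, the mouse number as a block, bright probe sets alone, probe sets averaged by gene, each mouse left out and, added after the data were seen, WT mouse 3 and KO mouse 1 left out together. Promoter windows came from RefSeq (GRCm38.p6).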

Additional observations from a re-analysis of the deposited data

Results flagged for a closer look

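Among 44 groups of 4 mice (the 10 TGF-β genes and 12 others named by rule), 3 held a mouse far from the rest by Dixon's test, which flags about 1 group in 20 by chance. Smad4 was at 6.32 in WT mouse 3 and at 6.67 to 6.70 in the other WT mice. Tgfbr1 was at 4.24 in WT mouse 1 and at 3.97 to 3.99 in the others. Klf10 was at 3.82 in WT mouse 1 and at 2.85 to 2.98 in the others, and without that mouse its log2 fold change was 0.76 in place of 0.53 and passed the threshold. Its means over all mice of either genotype were below the background gauge.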

How the results depend on the processing

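Of 189 comparisons of the 10 genes with 19 alternative settings, 165 kept their direction and side of the threshold, 2 passed it and 22 changed sign, none of the last past the threshold. Smad3 could not be fitted among bright probe sets alone. One TGF-β gene, Bambi, passed the threshold when probe sets were averaged by gene (1 gene past it), and the number past it was 0 to 1 with single mice left out, being 1 without WT mouse 2. The mouse number did not pair the mice (correlations of deviations −0.10, 0.02, 0.07 and 0.24 for numbers 1 to 4), and with it as a replicate block 0 of the 10 genes, 2 of the 104 others and 1484 probe sets passed, against 0, 1 and 1444. The number of the 104 genes past it was 4 with array weights, 3 with the t-test, 3 with probe sets averaged by gene and 1 to 4 with single mice left out (4 without WT mouse 1, and 2 without each KO mouse in turn), and Junb was among them each time. Among bright probe sets 630 passed, from fewer tested, and the scalings turned the split of 658 lower and 786 higher to 796 and 726 (quantile), 773 and 631 (centred) and 799 and 735 (cyclic loess). Sign changes were at −0.026 with array weights, −0.029 centred and −0.126 without WT mouse 3 and KO mouse 1 for Tgfbr1, at −0.003 centred and −0.086 without those mice for Tgfb3, and at 0.01 (quantile) and 0.005 (cyclic loess) for Smad4. With single mice left out the log2 fold change ran from −0.03 to 0.36 for Tgfb1, −0.31 to 0.28 for Tgfb3, −0.101 to 0.084 for Tgfbr1, −0.25 to 0.29 for Tgfbr2, −0.33 to 0.12 for Smad2, −0.12 to 0.21 for Smad7, −0.38 to −0.13 for Tgfb2, 0.063 to 0.164 for Smad3, −0.139 to −0.002 for Smad4 and −0.90 to −0.47 for Bambi. The causes of these shifts were not tested. Tgfb2 and Smad3 were too dim for a change to be read with confidence.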
